A study of Mus musculus with 9 samples.

Results

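The 10 genes described here are the gene of E-cadherin (Cdh1) and 9 genes of the tight junction and its surroundings, Epcam, Ocln, Tjp1, F11r, Cldn3, Cldn7, Cldn15, Cgn and Marveld2. They were chosen by name, and each was read from the array row that carries its symbol and no other, with the row of highest mean taken where a gene had several. All 10 had such a row, out of 22180 genes tested, and Cdh1 alone had more than 1 row. Gene expression was measured on arrays in γδ T cells, T cells whose receptor is made of γ and δ chains, from C57BL/6 mice. Each of 3 subsets had 3 arrays, 9 in all: intraepithelial lymphocytes (IELs) of the intestinal epithelium, marked in the sample descriptions as small intestine, and Naive-like and Type-1 cells of peripheral lymph nodes. IELs were freed from the gut wall with EDTA and a reducing agent and enriched on a Percoll gradient, whereas lymph nodes were mashed and filtered. Antibodies to CD45, CD3 and the γδ receptor were among those listed, but the sources used here do not give the gates, the age of the mice, any treatment of the animals or whether an array held 1 mouse or a pool. Per the labels the 3 arrays are biological replicates, and a p-value here reflects the spread among these arrays alone. Tissue and subset differ together in both comparisons with IELs, so their effects cannot be told apart there. Both comparisons also use the same 3 IEL arrays, and their values are given side by side for that reason.

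E-cadherin is the calcium-dependent adhesion molecule that joins epithelial cells at the adherens junction, where its tail binds catenins. Just above it lies the tight junction, in which claudins, occludin and tricellulin seal the space between cells and scaffold proteins such as ZO-1 and cingulin hold them to the cytoskeleton. IELs sit between these epithelial cells, and E-cadherin is the ligand of the integrin αEβ7 that many of them carry, as well as of the inhibitory receptor KLRG1.

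Epcam and Cldn3 are shown by the 250 bases before their RefSeq start sites (GRCm38.p6), because one rose in IELs and the other, although higher on every IEL array, did not pass the test. Both genes lie on the plus strand, with the windows at chr17:87635729-87635978 for Epcam and chr5:134985964-134986213 for Cldn3. Capitals mark the E-box CACCTG, the letters that repressors of the Snail and ZEB families bind, and the GC box GGGCGG, the letters that Sp1 binds, each on either strand.
Epcam: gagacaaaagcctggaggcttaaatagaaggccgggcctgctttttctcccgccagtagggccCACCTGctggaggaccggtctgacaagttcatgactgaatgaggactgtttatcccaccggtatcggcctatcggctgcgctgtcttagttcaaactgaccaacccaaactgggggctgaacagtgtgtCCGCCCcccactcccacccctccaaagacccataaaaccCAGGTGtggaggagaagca
Cldn3: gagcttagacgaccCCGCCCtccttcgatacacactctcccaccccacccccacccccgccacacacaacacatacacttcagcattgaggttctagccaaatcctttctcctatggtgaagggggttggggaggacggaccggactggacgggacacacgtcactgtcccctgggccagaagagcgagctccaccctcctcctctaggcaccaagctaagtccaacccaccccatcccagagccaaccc
The Epcam window held 2 E-boxes, 187 and 19 bases before the start, and a GC box at 58 bases, none of which overlapped. The Cldn3 window held no E-box and 1 GC box, 236 bases before the start. Of the 10 genes 9 had 12 such windows in all, and Cdh1 was not matched. An E-box lay in a window of 4 of the 9 genes (Epcam, F11r, Cldn7 and Ocln), against 19.4% of the 27025 genes in the table. A GC box lay in a window of all 9, against 35.4% of genes. G and C made up 50.4% to 70.4% of the bases in the 12 windows, and the median over all windows was 52.4%. The shares were not adjusted for this base content. The letters CCAAT were found in 3 of the 9, against 37.5% of genes, and the Grainyhead site AACCGGTT in 0 of the 9, against 0.137%. These are matches of letters and no measured binding.

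Over all genes the correlation between arrays was 0.947 to 0.982 within a subset and 0.912 to 0.975 between subsets. The T cell label held in every array: the mean log2 value of 7 T cell genes was 10.31 to 10.59 in IELs, 10.24 to 10.63 in Naive-like and 9.99 to 10.29 in Type-1 cells. The γδ receptor genes Trdc and Tcrg-C1 had no row with their symbol alone, so the γδ label was not checked. Many markers of enterocytes, goblet cells and Paneth cells moved with IELs. Of 22 enterocyte and general epithelial genes 14 rose in each comparison, as did 4 of 7 goblet cell genes and 8 of 8 Paneth cell genes. Over all genes 3.57% rose against Naive-like and 3.73% against Type-1 cells. Of 10 genes of crypt stem, enteroendocrine and tuft cells only 1 rose in each comparison, and their median differences were 0.06 and 0.02. The differences of the 22 enterocyte genes ran from 0.08 to 3.94 against Naive-like cells and from -0.04 to 4.50 against Type-1 cells, with Fabp2 and Fabp1, the fatty acid binding proteins of gut epithelium, at the top. Over all of these epithelial lists together, the mean level was 5.39 to 6.02 on the IEL arrays, 3.85 to 4.06 in Naive-like and 3.90 to 4.10 in Type-1 cells. The part of this epithelial RNA in the results on junction genes was not tested, and in bulk RNA fewer cells of a type and less RNA per cell cannot be told apart. All values below are log2 array values, differences are between subset means with their standard error, n = 3 arrays per subset, and adjusted p-values come from limma over all 22180 genes.

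Cdh1 and Epcam rose in IELs against both lymph node subsets, and the 8 other genes passed the test in neither comparison. Thus 2 of 10 rose in each, where 3.57% of all genes rose against Naive-like and 3.73% against Type-1 cells. Both were among the 598 genes, 2.70% of all, that were higher in IELs than in each lymph node subset. At an unadjusted p under 0.05, 6 of 10 were higher in each comparison, against 8.59% and 9.66% of all genes. The median difference of the 10 genes was 0.71 against Naive-like and 0.53 against Type-1 cells, beside -0.01 and -0.03 over all genes.

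**Figure D1:**
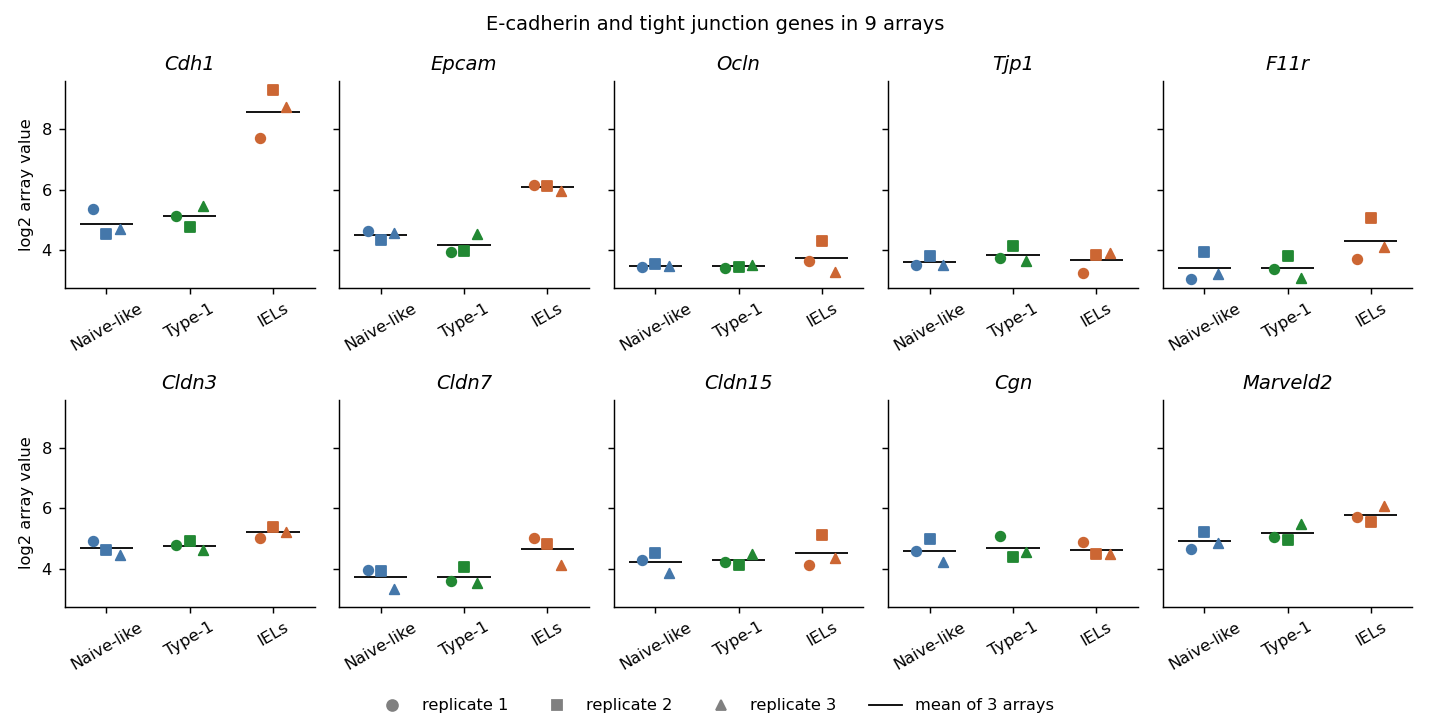
Log2 array value (vertical axis) of each of the 10 genes on the 3 arrays of every subset; points are single arrays and bars the subset mean. Cdh1 and Epcam stand apart in IELs, with the lowest IEL value of Cdh1 at 7.71 against a highest lymph node value of 5.47, while the arrays of Ocln, Tjp1, F11r, Cldn15 and Cgn overlap between subsets.

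Cdh1 read 7.71, 9.28 and 8.72 on IEL replicates 1, 2 and 3. It read 5.37, 4.54 and 4.68 in Naive-like cells and 5.12, 4.75 and 5.47 in Type-1 cells. All 3 IEL arrays therefore lay above all 6 lymph node arrays, and the IEL arrays themselves spread over a wider range than those of either lymph node subset. The difference was 3.71 ± 0.37 against Naive-like cells, 13.0-fold (95% interval 2.91 to 4.50, adjusted p = 5.5e-05). Against Type-1 cells it was 3.46 ± 0.37, 11.0-fold (95% interval 2.66 to 4.26, adjusted p = 0.00011). The rise passed the test with each array left out in turn. With IEL replicate 2, the highest, left out, the difference from Naive-like cells was 3.35.

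The second array row of Cdh1 did not show this rise. It read 3.92, 4.00 and 3.90 in IELs, 3.49, 3.89 and 3.19 in Naive-like cells and 3.94, 4.32 and 3.13 in Type-1 cells, so the IEL arrays overlapped those of Type-1 cells and lay barely above the highest Naive-like value. Its differences were 0.41 ± 0.31 (adjusted p = 0.75) and 0.14 ± 0.31 (adjusted p = 0.89) when limma tested every row. With the mean of both rows in place of the brighter one, Cdh1 still rose in both comparisons, by 2.06 and 1.80. The sources used here do not say what part of the transcript each row covers.

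Epcam, an adhesion molecule of the epithelial cell surface that binds claudin-7, read 6.16, 6.12 and 5.94 in IELs. It read 4.64, 4.32 and 4.55 in Naive-like cells and 3.95, 3.97 and 4.54 in Type-1 cells. The 3 IEL arrays were close to each other and above every lymph node array. The rise was 1.57 ± 0.21 against Naive-like cells, 2.98-fold (95% interval 1.11 to 2.04, adjusted p = 0.0006), and 1.92 ± 0.21 against Type-1 cells, 3.79-fold (95% interval 1.46 to 2.39, adjusted p = 0.00015). Its 95% intervals lay wholly below those of Cdh1 in both comparisons, a difference between the genes that was not itself tested.

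**Figure D2:**
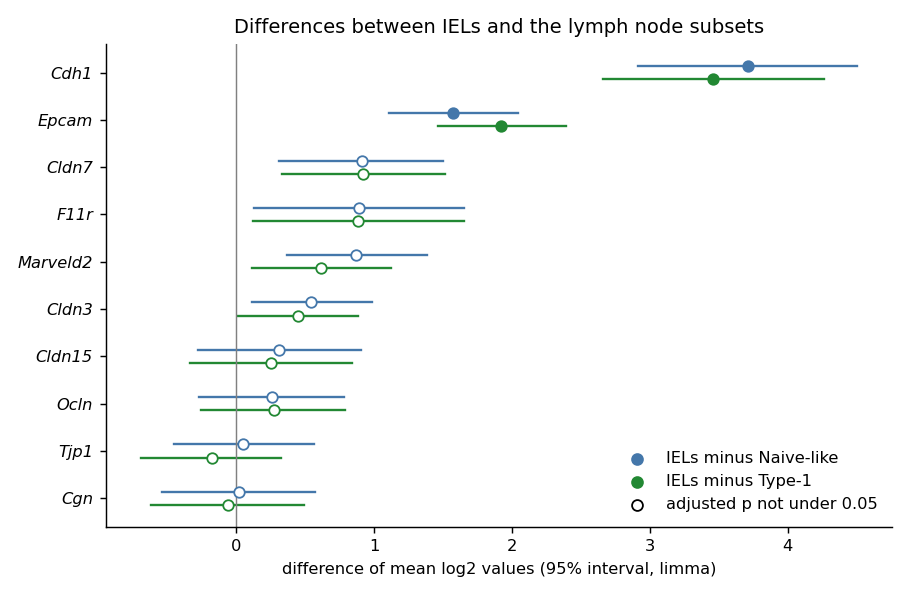
Difference of mean log2 values between IELs and each lymph node subset (horizontal axis) for the 10 genes, with 95% intervals from limma; filled points passed an adjusted p of 0.05. Cdh1 at 3.71 and 3.46 and Epcam at 1.57 and 1.92 passed, and the intervals of Ocln, Tjp1, Cldn15 and Cgn include 0 in both comparisons.

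The claudins form the paired strands of the tight junction, and none of the 3 measured here passed the test. Cldn7, a claudin that also lies along the side wall of gut epithelial cells, read 5.00, 4.80 and 4.12 in IELs, 3.96, 3.92 and 3.31 in Naive-like cells and 3.59, 4.04 and 3.53 in Type-1 cells. Every IEL array was above every lymph node array, with replicate 3 the lowest of the IEL arrays and near the highest lymph node value. The differences were 0.91 ± 0.27 (adjusted p = 0.092) and 0.92 ± 0.27 (adjusted p = 0.086). Both passed without IEL replicate 3, at 1.16 (adjusted p = 0.036) and 1.18 (adjusted p = 0.039), and under several alternative settings.

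Cldn3, another sealing claudin, read 5.01, 5.39 and 5.21 in IELs, 4.91, 4.62 and 4.46 in Naive-like cells and 4.77, 4.90 and 4.61 in Type-1 cells. The IEL arrays were again all higher, but the gap to the nearest lymph node array was small. The differences of 0.54 ± 0.20 (95% interval 0.11 to 0.98, adjusted p = 0.19) and 0.45 ± 0.20 (95% interval 0.01 to 0.88, adjusted p = 0.29) did not pass. Cldn15, a claudin that forms sodium channels between cells of the small intestine, read 4.11, 5.10 and 4.36 in IELs, 4.29, 4.52 and 3.84 in Naive-like cells and 4.23, 4.11 and 4.47 in Type-1 cells. Its arrays overlapped throughout, and the differences were 0.31 ± 0.27 (95% interval -0.28 to 0.90) and 0.25 ± 0.27 (95% interval -0.34 to 0.84). Without IEL replicate 2 they were 0.02 and -0.03.

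Occludin and tricellulin are related proteins that span the membrane, occludin along the strands and tricellulin where 3 cells meet. Their genes, Ocln and Marveld2, are neighbours on chromosome 13 among protein-coding genes. Marveld2 read 5.69, 5.55 and 6.08 in IELs, 4.66, 5.21 and 4.83 in Naive-like cells and 5.04, 4.96 and 5.48 in Type-1 cells. The IEL arrays were the 3 highest, though the lowest of them was close to Type-1 replicate 3. Its difference from Naive-like cells, 0.87 ± 0.23 (95% interval 0.37 to 1.38), lay just outside the threshold (adjusted p = 0.051), and that from Type-1 cells was 0.61 ± 0.23 (adjusted p = 0.19). The first passed in limma's test under 9 of 22 alternative settings, with an adjusted p as low as 0.016. Among them were the fits without Naive-like replicate 2 (1.03, adjusted p = 0.048) and with Type-1 replicate 3 left out of the shared estimate of spread (0.87, adjusted p = 0.043).

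Ocln read 3.62, 4.29 and 3.27 in IELs, 3.43, 3.53 and 3.46 in Naive-like cells and 3.42, 3.45 and 3.51 in Type-1 cells. The 6 lymph node arrays lay close together, while IEL replicates 1 and 2 were above and IEL replicate 3 below all of them. The differences, 0.26 ± 0.24 (95% interval -0.27 to 0.78) and 0.27 ± 0.24 (95% interval -0.26 to 0.79), had adjusted p = 0.77 and 0.66. Without IEL replicate 2 they turned to -0.03 and -0.02.

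F11r encodes JAM-A, an immunoglobulin-like adhesion molecule of the tight junction that blood cells carry too. It read 3.71, 5.07 and 4.10 in IELs, 3.05, 3.95 and 3.21 in Naive-like cells and 3.37, 3.79 and 3.07 in Type-1 cells. IEL replicates 2 and 3 were above all lymph node arrays, and IEL replicate 1 was below replicate 2 of each lymph node subset. The differences were 0.89 ± 0.35 (95% interval 0.13 to 1.65, adjusted p = 0.24) and 0.88 ± 0.35 (95% interval 0.12 to 1.65, adjusted p = 0.22). Both were 0.50 without IEL replicate 2, the highest array, and with array weights the first was 1.25 and passed (adjusted p = 0.026).

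The scaffolds did not separate the subsets. Tjp1, the gene of ZO-1, read 3.24, 3.83 and 3.90 in IELs, 3.51, 3.80 and 3.50 in Naive-like cells and 3.74, 4.14 and 3.64 in Type-1 cells, and its differences were 0.05 ± 0.23 (95% interval -0.45 to 0.56) and -0.18 ± 0.23 (95% interval -0.69 to 0.32). Cgn, the gene of cingulin, read 4.87, 4.47 and 4.48 in IELs, 4.58, 4.99 and 4.20 in Naive-like cells and 5.08, 4.39 and 4.55 in Type-1 cells, and its differences were 0.02 ± 0.25 (95% interval -0.54 to 0.57) and -0.06 ± 0.25 (95% interval -0.62 to 0.49). For both genes the arrays of all subsets overlapped, and their intervals together ran from -0.69 to 0.57.

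The 3 IEL arrays lay above the 3 Naive-like arrays for 5 of 10 genes (Cdh1, Epcam, Cldn3, Cldn7 and Marveld2), where 10.9% of all genes had that order. Against Type-1 cells it was again these 5, where 10.0% of all genes had it. The IEL mean was above the Naive-like mean for all 10 genes, against 49.2% of all genes, and above the Type-1 mean for 8, against 45.8%. For Tjp1 and Cgn the Type-1 mean was the highest, by less than the standard error.

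Within the lymph node, Type-1 and Naive-like cells were compared as well. By limma's test 0 of 10 passed, where 0.284% of all genes did, and 0 of 10 had an unadjusted p under 0.05, where 6.48% of all genes did. With shares this low, 0 of 10 does not set these genes apart. In simulated data the test recovered a log2 change of 1 in 28% of such genes for this comparison. Differences, taken as Type-1 minus Naive-like, ran from -0.35 for Epcam to 0.26 for Marveld2. Cdh1 differed by 0.25 ± 0.37 there.

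The IEL arrays did not rank alike. Cdh1 lay 2.72, 4.29 and 3.73 above the mean of all lymph node arrays on replicates 1, 2 and 3, so replicate 1 was lowest and replicate 2 highest. Epcam lay 1.83, 1.80 and 1.62 above it, nearly level across the arrays. The mean of the 8 other genes lay 0.29, 0.70 and 0.33 above it, with replicate 2 highest for this mean.

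Epithelial markers were also highest on IEL replicate 2. The enterocyte list lay 1.22, 1.82 and 1.15 above the lymph node mean on replicates 1, 2 and 3, the goblet cell list 0.98, 1.97 and 1.34, and the Paneth cell list 3.62, 4.48 and 3.67. Replicate 2 was the highest IEL array for 33 of 47 epithelial markers (70.2%), for 5 of the 10 genes described here and for 31.9% of all genes. Cdh1 was highest on replicate 2, as these lists were, whereas Epcam was not. The mean of 7 T cell genes lay 0.03, 0.31 and 0.17 above the lymph node mean, also highest on replicate 2 and lowest on replicate 1. Gene by gene, replicate 2 was the highest IEL array for 3 of these 7 (42.9%). The fibroblast list stood at 0.00, -0.04 and -0.19 and the endothelial list at -0.34, -0.32 and -0.30. The myeloid list stood at 0.57, 0.62 and 0.59 and the B cell list at -0.35, 0.01 and -0.32, both highest on replicate 2. Among the 8 other genes replicate 2 was the highest IEL array for 4 and the lowest for 2, Marveld2 and Cgn. Replicate 1, the lowest for Cdh1, was also the lowest for the goblet cell list and, by little, for the Paneth cell list. Of the 8 Paneth cell genes, 4 were lowest on replicate 1 and 4 on replicate 3. Replicate 1 was the lowest for 13 of the 22 enterocyte genes, but the mean of that list was lowest on replicate 3. It was also the lowest for 5 of 7 T cell genes. With 3 arrays no correlation was computed, and the part of carried-over epithelial RNA in Cdh1 or Epcam was not tested. Without IEL replicate 2 both genes kept their rise, Cdh1 at 3.35 and 3.10 against Naive-like and Type-1 cells. Replicates 1 and 3 also lay above the lymph node mean on the enterocyte, goblet cell and Paneth cell lists. Leaving out replicate 2 is therefore no test of carry-over.

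**Figure D3:**
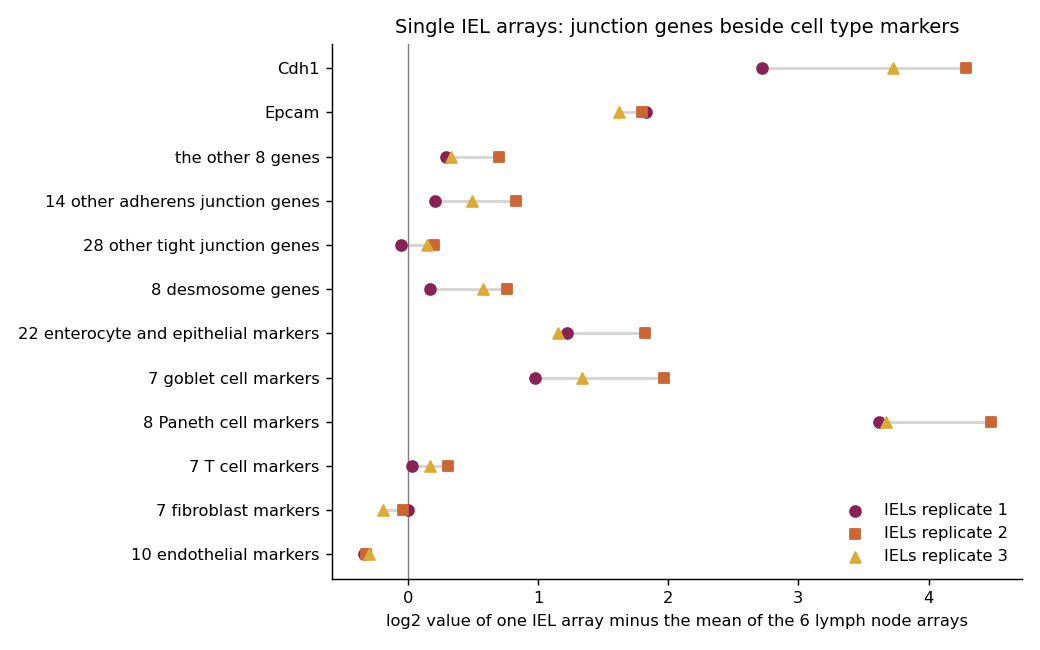
Height of each IEL array above the mean of the 6 lymph node arrays (log2, horizontal axis) for Cdh1, Epcam, the mean of the other 8 genes and the means of junction gene and marker lists; each point is 1 IEL array. Replicate 2 is highest for Cdh1 (4.29) and for the enterocyte, goblet cell, Paneth cell and T cell lists, while Epcam stays between 1.62 and 1.83.

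Replicate 3 of every subset carries a 6-digit code in its description that the other arrays lack, of unstated meaning. On the 6 arrays without it, Cdh1 was higher in IELs by 3.54 against Naive-like cells and again passed the test. Among the 3 arrays with it, Cdh1 read 8.72 in IELs, 4.68 in Naive-like and 5.47 in Type-1 cells.

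Of 50 other genes of cell junctions, 6 rose and 1 fell against Naive-like cells, and 5 rose and 0 fell against Type-1 cells, where limma called 5.19% and 5.14% of all genes in either direction. At an unadjusted p under 0.05, 2 of these 50 were below Naive-like cells, against 5.61% of all genes, and 2 below Type-1 cells, against 6.61%, while 14 and 13 were above them, against 8.59% and 9.66% of all genes. Their median difference was 0.17 and 0.11. Counts of those that passed moved with single arrays, to 11 and 10 without IEL replicate 1, to 4 against Naive-like cells without IEL replicate 3 or Naive-like replicate 2, and to 3 against Type-1 cells without Type-1 replicate 3.

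Among 14 other adherens junction and cadherin genes, 3 rose against Naive-like and 2 against Type-1 cells, where 3.57% and 3.73% of all genes rose. Cdh17, the LI-cadherin of intestinal epithelium, read 5.70, 7.11 and 6.28 in IELs and rose by 2.67 ± 0.32 and 2.80 ± 0.32 (adjusted p = 0.00023 and 0.00018). As with Cdh1, replicate 2 was its highest IEL array and replicate 1 its lowest. Cdhr5, a protocadherin of the brush border, rose by 1.47 ± 0.29 and 1.25 ± 0.29, and Afdn, the gene of afadin, which ties nectins to actin, rose by 1.06 ± 0.22 against Naive-like cells. Cdhr5 was likewise highest on IEL replicate 2 and lowest on replicate 1, whereas Afdn was highest on replicate 3. The catenin genes were not among those that passed. Ctnna1 came near the threshold against Naive-like cells, at 0.86 ± 0.23 (adjusted p = 0.056 by limma), with all IEL arrays above all Naive-like arrays. Against Type-1 cells it differed by 0.20 ± 0.23. Ctnnb1 differed by -0.11 ± 0.27 and 0.18 ± 0.27, Ctnnd1 by 0.17 ± 0.20 and 0.10 ± 0.20, and Jup by -0.03 ± 0.18 and 0.26 ± 0.18.

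Of 28 other tight junction genes 1 rose in each comparison and 1 fell against Naive-like cells. Over all genes 3.57% rose against Naive-like and 3.73% against Type-1 cells, and 1 of 28 is close to these shares. At an unadjusted p under 0.05, 5 of the 28 were higher in each comparison, against 8.59% and 9.66% of all genes. By the same measure 2 were lower in each, against 5.61% and 6.61%. Igsf5, the gene of JAM4, rose by 1.10 ± 0.25 and 1.12 ± 0.25. Magi3, a scaffold, fell by 1.14 ± 0.29 against Naive-like cells and differed by 0.03 ± 0.29 from Type-1 cells. Of 8 desmosome genes Perp rose by 1.86 ± 0.21 and 1.66 ± 0.21 and Pkp2 by 1.69 ± 0.27 and 1.64 ± 0.27, and the other 6 did not pass. Igsf5, Perp and Pkp2 were each highest on IEL replicate 3, unlike Cdh1 and Cdh17, and lowest on replicate 1. Among 13 epithelial transcription and splicing factors Elf3 (1.41 ± 0.26) and Esrp1 (0.79 ± 0.20) rose against Naive-like cells. Against Type-1 cells 0 passed, where 3.73% of all genes rose. At an unadjusted p under 0.05, 3 were higher there, against 9.66% of all genes.

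**Figure D4:**
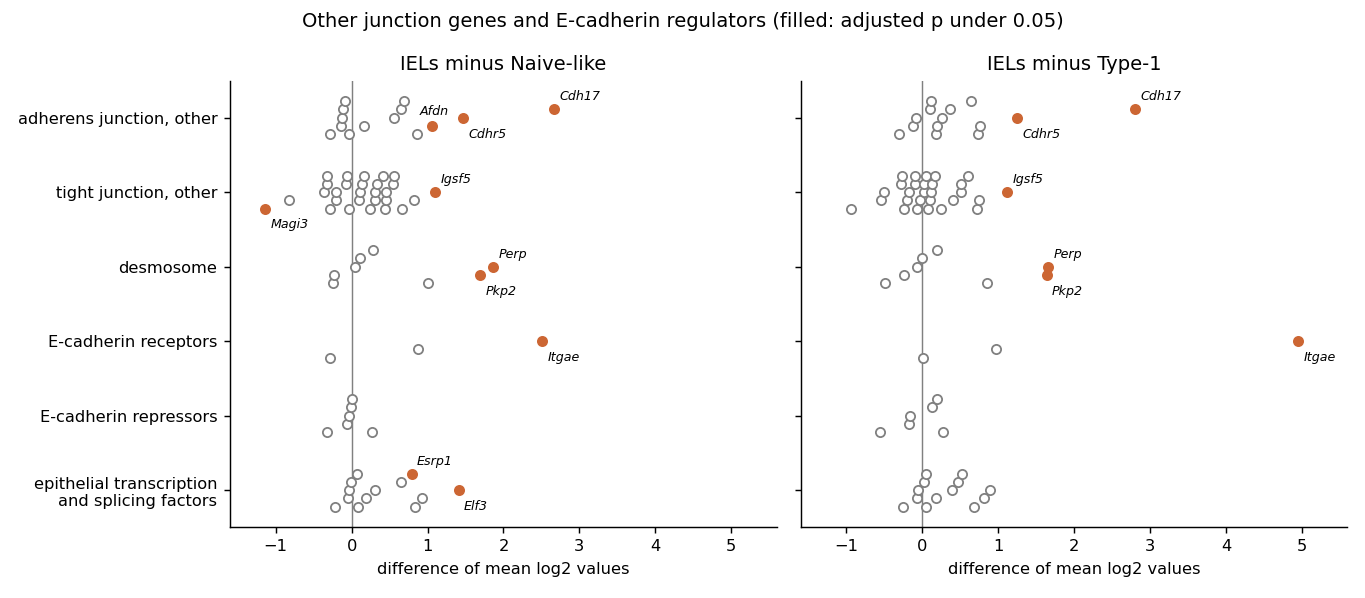
Difference of mean log2 values between IELs and each lymph node subset (horizontal axis) for other junction genes, receptors of E-cadherin, repressors of its gene and epithelial transcription and splicing factors; each point is 1 gene, filled where the adjusted p was under 0.05. Most points lie near 0, with Cdh17 at 2.67 and 2.80 and Itgae at 2.51 and 4.95 farthest to the right.

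Partners and regulators of E-cadherin were read as well. Itgae, the αE chain of the integrin that binds E-cadherin, read 10.76, 11.40 and 11.38 in IELs, 8.26, 8.65 and 9.10 in Naive-like and 6.05, 5.85 and 6.78 in Type-1 cells. It rose in IELs by 2.51 ± 0.30 and 4.95 ± 0.30, and the subsets did not overlap on it. Its partner chain Itgb7 differed by -0.28 ± 0.21 and 0.01 ± 0.21. Klrg1, the other receptor, read 5.54 on IEL replicate 1 but 3.93 and 4.18 on replicates 2 and 3, and did not pass. Of 6 repressors of the E-cadherin gene 0 passed limma's test in either comparison, where 5.19% and 5.14% of all genes did. At an unadjusted p under 0.05, 0 and 1 were lower in IELs, against 5.61% and 6.61% of all genes, and 0 were higher. With 6 genes and shares this low, these counts do not set the repressors apart. Snai3 differed by -0.33 ± 0.18 and -0.56 ± 0.18, and Snai1 by 0.27 ± 0.19 and 0.13 ± 0.19. Zeb2, another listed repressor, had no row with its symbol alone and was not read.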

How the data were processed

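RNA of 9 samples of γδ T cells was hybridised to arrays, and the authors deposited log2 values, made per the submitters' processing notes with oligo and RMA. The sources used here give no versions, filters or genome build. RMA sets the arrays to one distribution and summarises probes per row, and it compresses differences of dim genes. Array medians ran from 4.25 to 4.43, and no detection calls were used. Groups came from the sample titles.

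Of 41345 array rows, 23521 had 1 gene symbol in the platform annotation, 1814 several and 16010 none. Rows with 1 symbol gave 22180 genes, and the row of highest mean stood for a gene with several. Subsets were compared in R 4.3.3 with limma 3.58.1 (1 mean per subset over all 9 arrays, eBayes, two-sided, Benjamini-Hochberg adjustment over all genes, threshold 0.05), with 6 residual and 6 prior degrees of freedom. The median standard error was 0.235, and the number of arrays limits precision. A fold is 2 to the power of a log2 difference. Promoter windows and gene neighbours came from RefSeq tables of GRCm38.p6.

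The 10 genes, the lists and the rules were chosen with earlier results of these data known. All 10 are described in full, and of every other list up to 4 genes that passed, or 2 where none did, with all 3 receptors of E-cadherin. The test was tried on simulated data in which 200 of 22180 genes changed. For IELs against Naive-like, IELs against Type-1 and the 2 lymph node subsets, a log2 change of 1 was recovered in 34%, 39% and 28% of such genes, and a change of 2 in 87%, 83% and 95%, with 2, 1 and 7 false calls. Alternatives were leaving out genes whose mean was under the percentile 40, other normalizations, moderation with a trend, array weights, other uses of a gene's rows, fewer subsets, blocks by replicate number, description set or 6-digit code, the 6 arrays without that code, and each array left out. Python 3.11.15, pandas 2.3.3, numpy 2.4.6 and matplotlib 3.10.9 were also used.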

Additional observations from a re-analysis of the deposited data

How the results depend on the processing

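Cdh1 and Epcam passed in both comparisons with IELs under all 22 alternatives, Cdh1 at 2.06 to 4.14 and 1.80 to 3.89 and Epcam at 1.48 to 1.66 and 1.82 to 2.19 (Naive-like, then Type-1). Of the 10 genes, 2 passed against Naive-like cells, and 4 with quantile normalization again, cyclic loess, array weights, the description set or the 6-digit code, the added genes being among Cldn7, Marveld2 and F11r; leaving out single arrays gave 2 to 3, and 2 to 3 against Type-1 cells. Other junction genes that passed numbered 7 against Naive-like cells, 13 with array weights, 2 on the 6 arrays without the code and 4 to 11 with an array left out. Against Type-1 cells they numbered 5, 9 with array weights, 3 with every row tested or with 2 subsets fitted, 2 on the 6 arrays and 3 to 10 with an array left out. Over all genes 1152 passed against Naive-like cells (1920 with array weights, 534 on the 6 arrays), 1140 against Type-1 cells (565 on the 6 arrays, 732 and 724 without IEL replicates 2 and 3) and 63 between lymph node subsets (35 with every row tested, 20 on the 6 arrays, 34 without Naive-like replicate 3). The cause of these shifts was not tested. IEL replicate 1 had the lowest array weight (0.441).

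With the replicate block 5 of the 10 genes passed against Naive-like and 4 against Type-1 cells. Same-numbered arrays of different subsets correlated at -0.01 to 0.38 in their deviations from subset means, and the labels do not say that numbers pair samples, so they were not treated as pairs.

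Signs turned in differences that did not pass. Against Naive-like cells, Tjp1 was -0.12 and Cgn -0.11 on the 6 arrays, and Cgn was -0.11 with array weights. Against Type-1 cells Cgn was 0.01 with cyclic loess. In Type-1 minus Naive-like, the 6 arrays gave Cdh1 -0.02, Cldn15 -0.23 and Cgn -0.05, F11r was -0.02 with array medians subtracted, -0.06 with quantile normalization again and -0.08 with cyclic loess, and Cldn15 was -0.02 with array weights. With an array left out, ranges crossed 0 against Naive-like cells for Ocln (-0.03 to 0.48), Tjp1 (-0.07 to 0.27) and Cgn (-0.18 to 0.22), against Type-1 cells for Ocln (-0.02 to 0.49), Tjp1 (-0.31 to 0.03), Cldn15 (-0.03 to 0.46) and Cgn (-0.20 to 0.14), and between lymph node subsets for Ocln (-0.04 to 0.02), F11r (-0.19 to 0.28), Cldn3 (-0.01 to 0.22), Cldn7 (-0.22 to 0.10), Cldn15 (-0.13 to 0.21) and Cgn (-0.12 to 0.28). The filter on dim genes left out Ocln, Tjp1, F11r and Cldn7.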

Other observations

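The genes whose pattern over the 9 arrays was most like that of each gene were ranked by the root mean square of the gap between their log2 profiles, each centred on its own mean, with predicted genes left out. Nearest to Cdh1 were Clca3b (0.257), Cfap126 (0.321) and Asb2 (0.345). Nearest to Epcam were Smim3 (0.174), Plin2 (0.177), which coats lipid droplets, and Ntan1 (0.196). In order of rank, the nearest to F11r were Clrn3, Klf5, a transcription factor of crypt epithelium, and Pnliprp2. Those to Cldn7 were Aoc1, Faxc and Gucy2c, the guanylate cyclase receptor of enterocytes. Those to Cldn15 were Vdr, the vitamin D receptor, Hyou1 and Igsf23. Those to Ocln were Unc13b, Bmyc and Ehf, an epithelial transcription factor. Those to Cldn3 were Plxnb2, Gab2 and Kif18b, and those to Marveld2 were Tob1, Tnfrsf1a and Cpa3. Those to Tjp1 were Ern2, Fgd1 and Nell2, and those to Cgn were Adam24, Capn8 and Cyp3a16. For these 10 genes, no member of the group was among the 3 nearest of another.

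Among markers of other cells, 0 of 7 fibroblast, 0 of 6 B cell and 0 of 10 endothelial genes rose in IELs by limma's test in either comparison. Over all genes 3.57% rose against Naive-like and 3.73% against Type-1 cells, so lists this short could hold 0 without differing from other genes. Pecam1, which many leukocytes carry, fell by 2.81 ± 0.30 against Naive-like and by 1.73 ± 0.30 against Type-1 cells. Eng, the gene of endoglin, fell by 1.91 ± 0.28 against Naive-like cells. The fibroblast genes Pdgfrb and Col1a1 differed from Naive-like cells by -0.39 ± 0.30 and -0.33 ± 0.18, and the B cell genes Blk and Cd79a by -0.81 ± 0.22 and -0.41 ± 0.24. At an unadjusted p under 0.05, 0 genes of these 3 lists were higher in IELs, against 8.59% and 9.66% of all genes. Of 10 myeloid and dendritic cell genes Itgax, the gene of CD11c, which IELs can carry, rose by 4.86 ± 0.29 and 3.94 ± 0.29. Of 10 genes of crypt stem, enteroendocrine and tuft cells 1 rose, Olfm4, by 2.78 and 2.98. Of 7 T cell genes Bcl11b fell by 1.11 ± 0.26 against Naive-like cells, and Cd3g and Zap70 rose by 0.99 ± 0.23 and 1.05 ± 0.25 against Type-1 cells. Of the epithelial lists, the genes of largest difference were Fabp1, Fabp2, Anpep and Muc13 for enterocytes (3.23, 3.94, 2.51 and 2.30 against Naive-like cells), Zg16, Tff3, Agr2 and Clca1 for goblet cells (2.21, 2.20, 1.88 and 1.63) and Defa22, Defa21, Defa24 and Ang4 for Paneth cells (7.20, 6.89, 5.63 and 3.90).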
